A study of Mus musculus with 3 samples.

Results

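Light chain variable (V) gene usage was read from bulk lung RNA of 3 mice. The members were chosen by annotation alone: every gene of the deposited count table that GENCODE release M21 calls an immunoglobulin V gene and whose symbol starts with Igkv or Iglv. That gave 103 genes of 53342 in the table, 100 of the kappa locus and 3 of the lambda locus, with rows at 0 included. Usage is a gene's share of the summed light chain V counts in a lung.

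All 3 animals were male C57Bl/6 mice. Each received Mycobacterium abscessus microparticles into the trachea, in 50 µL and equal to 1000000 bacteria, a challenge meant to produce lung granulomas. Over the next 3 weeks MIA-602, which blocks signalling by growth hormone-releasing hormone (GHRH), was injected below the skin at 5 µg daily. The labels place the animals, here called mouse 4, 5 and 6 after the last digit of their titles, in 1 group. Neither challenged mice without the drug nor unchallenged mice were analysed here, so the values describe these lungs and carry no effect of challenge or drug.

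An antibody light chain is assembled in the developing B cell, when the Rag1 and Rag2 recombinase joins 1 V gene to a joining segment. The V exon is then spliced to a kappa or lambda constant region. The V exon encodes most of the antigen-binding face of the chain, including the start of its most variable loop, CDR3. Plasma cells hold far more immunoglobulin RNA than resting B cells, so usage in tissue RNA weights cells by their transcripts. In bulk lung, fewer cells and less RNA per cell cannot be told apart.

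The libraries held 31579465 to 43845715 counts, of which 21049 in mouse 4, 10030 in mouse 5 and 10524 in mouse 6 fell on light chain V genes. These amounts equal 489, 277 and 332 CPM (counts per 1000000 library counts, with libraries scaled by TMM). RNA of B cells was looked for by 10 markers, all of which were counted in every lung. Being counted is a weak criterion, met by 26578 to 27586 of the 53342 genes per lung. Among the 10, Cd79a, a signalling chain of the B cell receptor, stood at 103, 68.3 and 115 CPM in mice 4, 5 and 6. Jchain, a plasma cell marker that links polymeric antibodies, stood at 401, 273 and 286 CPM.

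The germline sequence of the leading gene is shown because it carries the largest share of the repertoire. The second exon of Igkv14-111 covers chr6:68256572-68256869 of GRCm38 on the plus strand and is coding throughout. It reads 5′ to 3′ as below, with capitals on the codon of the conserved cysteine that precedes the CDR3 loop. Sequences are from GENCODE M21 transcripts.
Igkv14-111 exon: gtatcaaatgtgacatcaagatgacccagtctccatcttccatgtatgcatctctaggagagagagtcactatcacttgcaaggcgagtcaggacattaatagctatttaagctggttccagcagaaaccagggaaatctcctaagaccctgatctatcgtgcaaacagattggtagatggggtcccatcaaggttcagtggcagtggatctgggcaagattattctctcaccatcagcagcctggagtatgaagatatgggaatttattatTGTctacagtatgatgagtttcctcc

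The last 48 bases of 8 other germline V exons follow, with the same codon in capitals. They were chosen as the 4 most used genes after Igkv14-111 and the 4 of the 20 most used whose usage differed most between the mice. In GRCm38 they lie on the plus strand for Igkv1-110 at chr6:68271220-68271267 and Igkv1-135 at chr6:67610461-67610508. On the minus strand are Iglv1 at chr16:19085017-19085064, Igkv6-15 at chr6:70406469-70406516, Igkv6-23 at chr6:70260409-70260456, Igkv4-91 at chr6:68768555-68768602, Igkv8-30 at chr6:70117061-70117108 and Igkv19-93 at chr6:68736297-68736344.
Igkv1-110: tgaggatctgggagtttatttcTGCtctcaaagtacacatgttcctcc
Iglv1: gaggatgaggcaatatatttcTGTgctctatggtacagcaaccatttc
Igkv1-135: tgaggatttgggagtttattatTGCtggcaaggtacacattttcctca
Igkv6-15: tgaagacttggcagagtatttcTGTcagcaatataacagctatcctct
Igkv6-23: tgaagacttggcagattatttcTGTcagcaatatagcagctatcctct
Igkv4-91: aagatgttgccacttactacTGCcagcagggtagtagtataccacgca
Igkv8-30: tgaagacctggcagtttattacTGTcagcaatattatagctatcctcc
Igkv19-93: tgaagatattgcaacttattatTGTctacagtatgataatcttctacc

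The cysteine motif, searched on the transcript strand as TANTNNTGT or TANTNNTGC within the last 40 bases, was present in 99 of the 103 members (96.1%). It was also present in 108 of 113 heavy chain V genes, and in 1.96% of all 141704 GENCODE transcripts of at least that length. Iglv3, Igkv6-20, Igkv4-78 and Igkv6-29 lacked these letters in that window. The members resembled each other closely. The median member was 94.5% identical to its closest relative over the shorter spliced sequence, and 16 members had a relative at 97% or more. None of the 50-base windows of Igkv14-111 was found in the transcript of another gene, as in 23 members in all, and its closest relative, Igkv14-126, was 91.6% identical.

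A single gene led all 3 lungs. Igkv14-111 (ENSMUSG00000095771, chromosome 6, 68256389 to 68256869, plus strand) had 4486, 1615 and 1544 counts in mice 4, 5 and 6. That was a usage of 21.3% in mouse 4 (95% exact binomial interval 20.8 to 21.9), 16.1% in mouse 5 (15.4 to 16.8) and 14.7% in mouse 6 (14.0 to 15.4), or 17.4% ± 3.495 (SD, n = 3). Mouse 4 lay well above the others. The intervals of mice 5 and 6 nearly touched, at 15.39 and 15.36. Intervals here cover counting error only and take reads as independent. Reads without molecular identifiers are not independent molecules, so the intervals may be too narrow.

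Igkv1-110 came next on average, with 1535, 690 and 691 counts and usage of 7.29%, 6.88% and 6.57% (mean 6.91% ± 0.364). It is the next V gene along the locus from Igkv14-111, 13.6 kb away and in the same orientation. The pair together held 28.6%, 23.0% and 21.2% of light chain V counts. Igkv14-111 exceeded Igkv1-110 by 2.92, 2.34 and 2.23 times in counts in mice 4, 5 and 6, and by 3.19, 2.55 and 2.44 times per kilobase of exon. Igkv1-110 shared 50.9% of its 50-base windows with other genes and was 97.5% identical to Igkv1-117, so its reads may have been split between copies or lost.

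Iglv1, the principal lambda V gene (ENSMUSG00000076934, chromosome 16, 19085017 to 19085500), ranked 3 in mice 4 and 6 and 2 in mouse 5. Its counts were 979, 750 and 614 and its usage 4.65%, 7.48% and 5.83%. The 3 intervals did not overlap, with mouse 5 highest.

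Behind these leaders usage fell off gradually. Igkv1-135 averaged 3.45% ± 0.360, Igkv6-15 2.87% ± 0.492, Igkv10-94 2.52% ± 0.434 and Igkv10-96 2.44% ± 0.746. Places 8 to 20 ran from Igkv17-121 at 2.38% ± 1.06 to Igkv12-41 at 1.504% ± 0.223, and neighbours in this order did not differ by more than their spread. The genes between them were Igkv15-103, Igkv1-117, Igkv8-30, Igkv5-43, Igkv4-91, Igkv4-61, Igkv6-23, Igkv12-44, Igkv12-89, Igkv4-55 and Igkv19-93. All 20 also made up the 20 most used genes per kilobase of exon, where members differ little, with 338 to 501 exon bases.

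**Figure D1:**
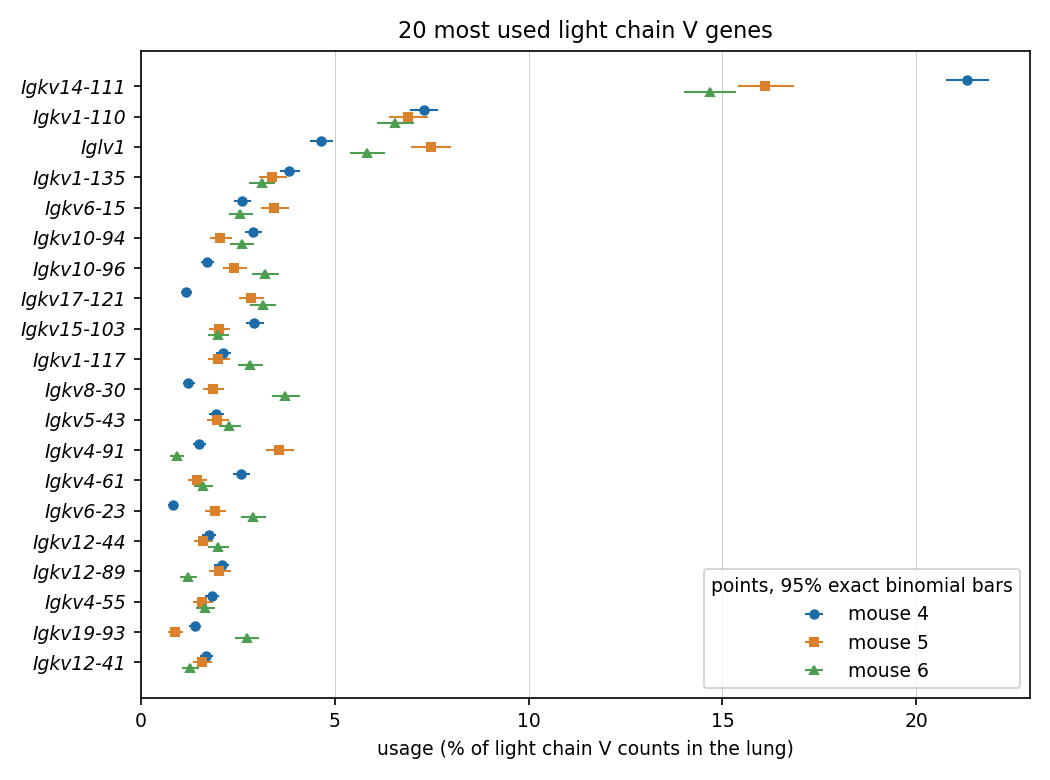
Usage (percent of light chain V counts in the lung, x axis) of the 20 most used light chain V genes, 1 point per mouse with its 95% exact binomial interval. Igkv14-111 lies at 14.7% to 21.3% in the 3 lungs, and no other gene passes 7.48%.

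The head of the usage list was shared between lungs. Among the 10 most used genes of each lung, 4 were common to all 3 mice, namely Igkv14-111, Igkv1-110, Iglv1 and Igkv1-135, and 16 genes appeared in at least 1 list. Of the 20 most used per lung, 12 were common to all and 28 appeared in at least 1 list. Across the 103 genes, usage correlated between lungs with Pearson's r of 0.958 for mice 4 and 5, 0.944 for mice 4 and 6 and 0.961 for mice 5 and 6, and with Spearman's rho of 0.956, 0.949 and 0.948. These describe genes, which are not independent replicates and share each library's depth. Without Igkv14-111, Pearson's r was 0.914, 0.889 and 0.906.

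A small set of genes held most of the counts in each lung. The number of genes needed to hold 50% of the counts was 9, 10 and 11 in mice 4, 5 and 6, and the 10 most used held 52.3%, 50.2% and 48.7% (mean 50.4% ± 1.83). The effective number of genes, the exponential of the Shannon entropy of the shares, was 34.7, 39.7 and 41.7 (mean 38.7 ± 3.56). Mouse 4 had the lowest effective number and mouse 6 the highest. When Igkv14-111 was left out, a choice made after its values were seen, the effective numbers were 47.0, 47.5 and 48.5, a spread of 0.767 (SD) against 3.56 with it.

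Heavy chain V genes, read in the same lungs, gave a reference. Their most used gene held 9.32%, 7.21% and 7.15% of heavy chain V counts, against 21.3%, 16.1% and 14.7% for the most used light chain gene. Shannon evenness, the entropy as a share of its largest possible value, was 0.766, 0.794 and 0.805 for the 103 light chain genes and 0.811, 0.832 and 0.824 for the 113 heavy chain genes. The within-lung difference, light minus heavy, was −0.0345 ± 0.0134 (SD, n = 3), lower for light chains in 3 of 3 mice. A two-sided exact test that flips the signs of the 3 differences returned p = 0.25, the smallest that 3 mice allow, so no difference could pass. The sign depended on the leading genes. Without Igkv14-111 the difference was 0.0130 ± 0.00981 (exact sign-flip p = 0.25). With the most used gene left out on both sides, Igkv14-111 and Ighv7-3, it was 0.00889, −0.00105 and 0.0105 in mice 4, 5 and 6, a mean of 0.00611 ± 0.00625 (exact sign-flip p = 0.5). Both alternatives were added after seeing the data.

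**Figure D2:**
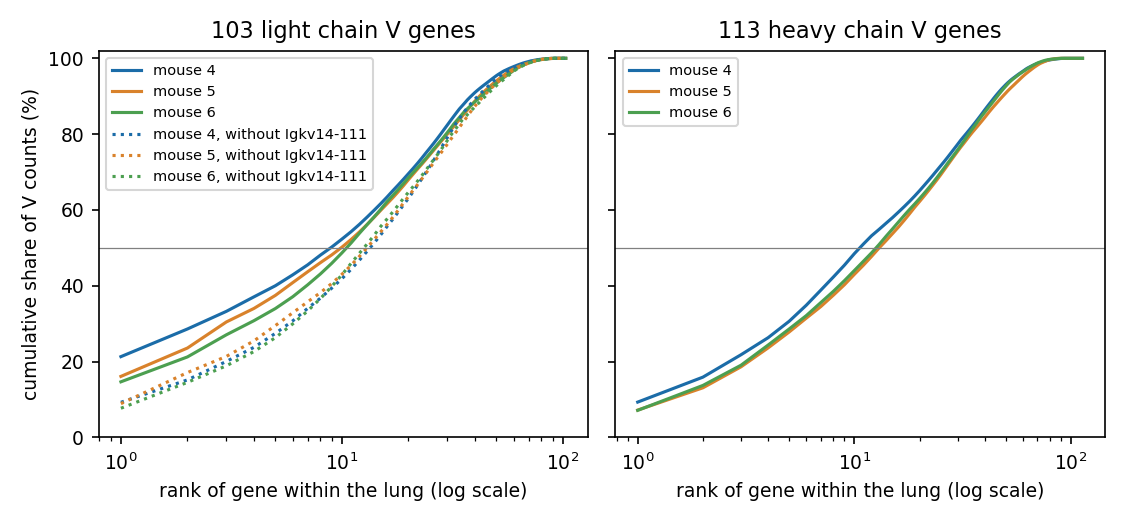
Cumulative share of V counts (percent) against the rank of the gene within the lung (log scale) for light chain genes, left, and heavy chain genes, right, 1 line per mouse. The solid light chain lines cross 50% at 9 to 11 genes, and the dotted lines, without Igkv14-111, lie lower at the first ranks.

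Kappa genes held most of the light chain V counts in every lung. The kappa share was 93.0% in mouse 4 (95% exact binomial interval 92.6 to 93.3), 90.2% in mouse 5 (89.6 to 90.8) and 92.2% in mouse 6 (91.7 to 92.7), a mean of 91.8% ± 1.42. Mouse 5 lay below the others, and the lambda share there was 9.76%, beside 7.01% in mouse 4 and 7.79% in mouse 6. The constant genes gave the same order of mice: Iglc1, Iglc2 and Iglc3 together made up 4.84%, 7.89% and 5.95% of light chain constant counts.

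Within lambda, Iglv1 supplied 66.4%, 76.6% and 74.9% of V counts in mice 4, 5 and 6. Iglv2 had 256, 126 and 118 counts and usage of 1.22%, 1.26% and 1.12%, and Iglv3 had 240, 103 and 88 counts and usage of 1.14%, 1.03% and 0.836%. Mouse 5, with the highest Iglv1 usage, also had the highest share of Iglc1 among lambda constant counts, at 46.0%, beside 30.6% in mouse 4 and 37.0% in mouse 6. Iglv1 and Iglv2 are 96.7% identical, so part of their reads may have been exchanged or lost.

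The 20 kappa families and the lambda genes differed widely in size and in how evenly their members were used. Igkv14, with 4 genes, held 23.5%, 17.8% and 16.04% of light chain V counts, of which Igkv14-111 made 90.9% on average. Igkv4, the largest family with 26 genes, all of them counted, held 17.2%, 15.98% and 15.8%, and its most used gene, Igkv4-91, made only 12.2% of that. Igkv1 followed with 14.0%, 13.3% and 13.4% over 10 genes. The Igkv6, Igkv12 and Igkv8 families averaged 8.26% ± 1.10, 6.85% ± 0.565 and 5.52% ± 1.32.

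Smaller shares fell to Igkv10 at 4.99% ± 0.735, Igkv5 at 4.46% ± 0.310, led by Igkv5-43, and Igkv17 at 3.67% ± 1.15. Families of 1 gene ranged from Igkv15-103 at 2.31% ± 0.532 and Igkv19-93 at 1.66% ± 0.956 down to Igkv16-104 at 0.564% ± 0.110. Igkv11-125, Igkv7-33 and Igkv18-36, also alone in their families, averaged 0.0657%, 0.0304% and 0.0241%. The Igkv3 family held 2.14% ± 0.482 with Igkv3-5 in the lead, Igkv9 1.05% ± 0.373 with Igkv9-120, Igkv13 0.807% ± 0.0650 with Igkv13-85, and Igkv2 0.412% ± 0.135 with Igkv2-109.

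**Figure D3:**
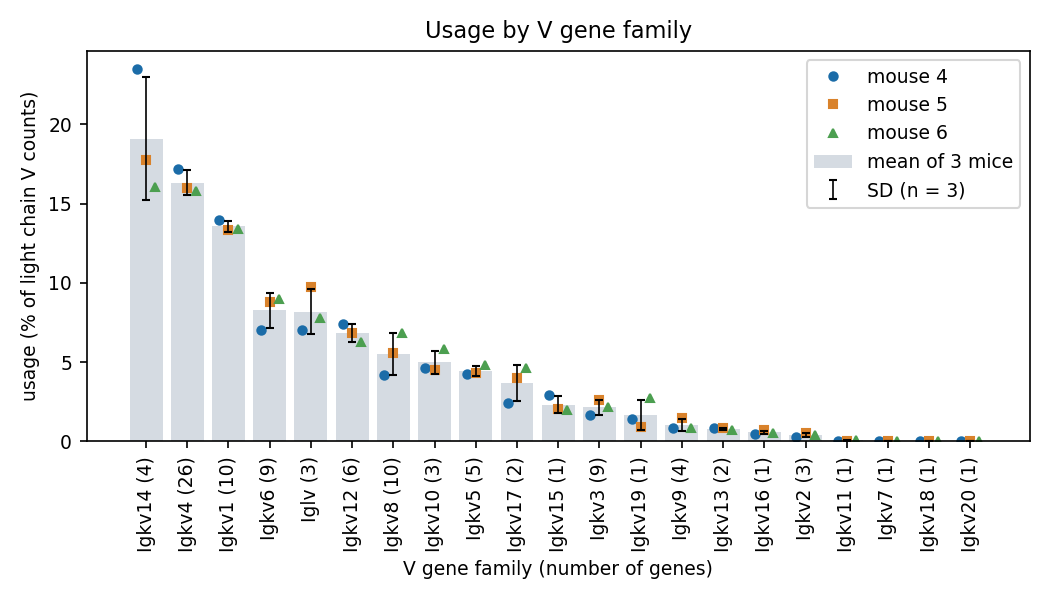
Usage (percent of light chain V counts) by V gene family, with the number of genes in brackets, as the mean of 3 mice (bars), its SD (lines) and each mouse (points). Igkv14, Igkv4 and Igkv1 average 19.1%, 16.3% and 13.6%, and the Igkv14 family has the widest SD, 3.89.

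Usage was spread along the whole kappa locus, whose V genes lie 22.3 to 3170 kb from Igkc, the kappa constant gene. Rearrangement of a V gene in the same orientation as Igkc deletes the DNA between, whereas a gene in the opposite orientation is joined by inversion. The 38 genes in the same orientation held 51.6%, 48.4% and 45.6% of kappa V counts in mice 4, 5 and 6, and the 62 in the opposite orientation 48.4%, 51.6% and 54.4%. Without Igkv14-111 the 37 others in the same orientation held 37.2%, 37.2% and 35.3%.

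The locus was also divided by distance from Igkc into 3 stretches of 1057 kb. The far stretch held 47.98%, 43.97% and 41.4% with 26 genes. The middle stretch held 26.7%, 26.1% and 27.6% with 32 genes, and the near stretch 25.4%, 29.9% and 31.0% with 42 genes. Without Igkv14-111 the far stretch no longer led, and the far, middle and near stretches averaged 31.6% ± 1.10, 33.1% ± 1.42 and 35.4% ± 2.15. In the near stretch, the 13 genes in the same orientation held 3.33%, 4.49% and 4.10% of kappa V counts, while its 29 genes in the opposite orientation held 22.03%, 25.4% and 26.9%. Of the 13, 9 form the Igkv3 family. The far stretch had 23 genes in the same orientation and 3 in the opposite one, and the middle stretch 2 and 30. Orientation, position and family therefore cannot be told apart here.

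**Figure D4:**
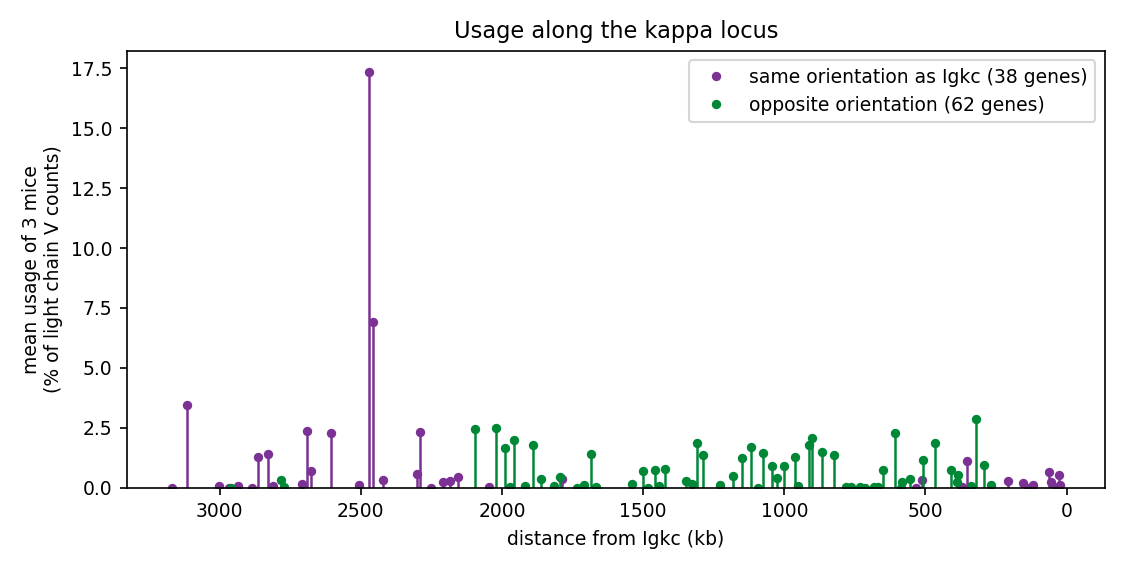
Mean usage over 3 mice (percent of light chain V counts) of the 100 kappa V genes against their distance from Igkc in kb, coloured by orientation relative to Igkc. Igkv14-111 and its neighbour Igkv1-110 stand at 17.4% and 6.91% in the far stretch, and every other kappa gene averages 3.45% or less.

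At the low end, 6 members had 0 counts in every lung, namely Igkv20-101-2, Igkv2-137, Igkv1-35, Igkv6-29, Igkv3-9 and Igkv3-3, listed after their values were seen. Taking 3 counts as the limit that a count of 0 allows, a one-sided bound, usage could be up to 0.0143%, 0.0299% and 0.0285% in mice 4, 5 and 6. A further 11 members had 1 to 9 counts summed over the lungs, 26 had 10 to 99 and the rest more. In all 88 members were counted in every lung, and 24 reached 1% usage in each. By the median, similarity to other genes was not greater among the scarce members. The median share of 50-base windows found elsewhere was 14.8% for the 17 members under 10 counts and 25.6% for the other 86. Single scarce members may still have lost reads. Igkv6-29, at 0, is 98.7% identical to Igkv6-20, which had 108 counts, so its 0 is uncertain. The same holds for Igkv2-137, at 0 with 56.0% of its windows shared. Igkv4-54, at 3 counts, is 96.9% identical to Igkv4-61, which had 858. Igkv8-26, at 1 count, is 97.8% identical to Igkv8-18, which had 14.

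Some genes differed between lungs by more than counting error, with reads taken as independent. Of the 67 members with at least 50 counts summed over the mice, 17 had usage more than 2-fold apart between the highest and lowest lung and 9 more than 3-fold, and the median ratio was 1.57. Usage was highest in mouse 4 for 24 of the 67, in mouse 5 for 18 and in mouse 6 for 25. Shares sum to the same total in each lung, so these counts say nothing of level.

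Igkv8-28 had the widest ratio, 5.51, with 16, 42 and 31 counts and usage of 0.0760%, 0.419% and 0.295% in mice 4, 5 and 6. Igkv4-91 had the widest ratio of the 20 most used genes, with 315, 358 and 97 counts and usage of 1.497%, 3.57% and 0.922%. It ranked 19, 4 and 33 in mice 4, 5 and 6, and shared only 5.18% of its windows with other genes.

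Mouse 6 was high for several others. Igkv8-30 had 258, 186 and 392 counts and usage of 1.23%, 1.85% and 3.73%, and ranked 4 in mouse 6. Igkv6-23 had usage of 0.822%, 1.91% and 2.89%, Igkv4-68 0.418%, 0.399% and 1.55%, and Igkv19-93 1.38%, 0.877% and 2.73%. In these 4 genes the interval of mouse 6 lay above those of mice 4 and 5. Igkv3-5, like Igkv4-91, was highest in mouse 5, at 0.380%, 1.19% and 0.390%. The remaining 3 of the 10 widest, Igkv4-74, Igkv8-27 and Igkv4-63, were highest in mouse 6 at 0.314%, 0.542% and 0.390%. The share of windows found in other genes ran from 0% for Igkv19-93 to 48.1% for Igkv4-74, 48.7% for Igkv4-68 and 51.35% for Igkv3-5. Igkv8-28 is 97.6% identical to Igkv8-19. Reads of such genes may have been split between copies or lost.

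**Figure D5:**
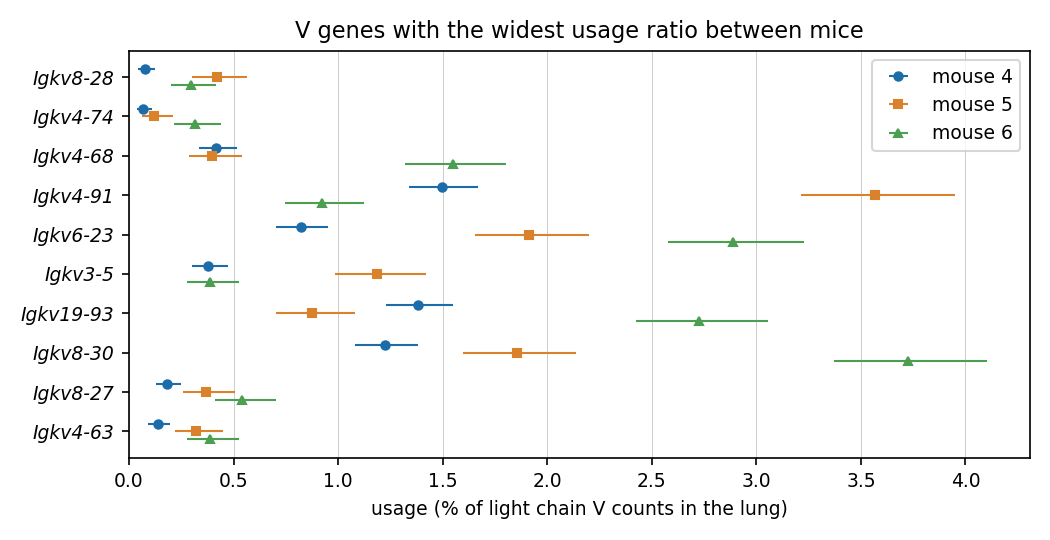
Usage (percent of light chain V counts in the lung, x axis) of the 10 members with the largest ratio of highest to lowest usage among those with at least 50 counts, 1 point per mouse with its 95% exact binomial interval. Igkv4-91 and Igkv3-5 are highest in mouse 5, and Igkv4-68, Igkv6-23, Igkv19-93 and Igkv8-30 in mouse 6.

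Counts of the same gene in 2 lungs were set against counting error by a chi-square statistic per degree of freedom. It lies near 1 when only the counting of independent reads differs. It was 13.3 for mice 4 and 5, 19.0 for mice 4 and 6 and 10.5 for mice 5 and 6 over 81 to 84 light chain V genes, and 12.6, 8.40 and 9.45 over heavy chain V genes. These pairs of lungs would become equal if 15.1%, 17.8% and 14.5% of light chain V counts moved to another gene. For heavy chain V counts the shares were 20.48%, 17.94% and 22.01%, higher in every pair. Heavy chain V genes had fewer counts, 8656, 4131 and 4045 in mice 4, 5 and 6. Both measures depend on the number of counts, so neither ranks light against heavy chains.

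Spread between mice in level, as opposed to usage, was tested in a fit over all 17636 genes that passed an expression filter, of which 69 were members. The edgeR quasi-likelihood test of spread above the trend, with Benjamini-Hochberg adjustment, called 0 of the 69 members and 0 of all genes (0%). At an unadjusted p under 0.05 it marked 19 members, against 4.92% of all genes tested. Without mouse 4 it marked 11 members, against 5.68% of all genes. Without mouse 5 it marked 21 of the 71 members then tested (4.92% of all genes), and without mouse 6 it marked 16 of 73 (4.78% of all genes). DESeq2 marked 0 members and 0.578% of all genes as dispersion outliers, and limma called 0 members and 0% of all genes. With every gene of at least 1 count tested, edgeR called 17 of 97 members after adjustment, against 2.05% of all genes. Igkv14-111 had the smallest p of the members, with an edgeR adjusted p of 0.835 and 104, 44.7 and 48.7 CPM in mice 4, 5 and 6. Igkv4-61 was next at 12.6, 4.01 and 5.33 CPM, and Igkv19-93, Igkv4-68 and Igkv4-53 followed. On the log2 scale, dispersion over trend had a median of 1.92 among the members and −0.29 among all genes tested, and without mouse 4 of 0.20 among the members and −1.07 among all genes.

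Levels of many members were higher together in mouse 4. Of the 69 members, 49 had their highest CPM in mouse 4, against 33.5% of all genes tested. More than 2-fold higher levels in mouse 4 than in mouse 5 were found for 20 members (2.9% of all genes), and in mouse 4 than in mouse 6 for 12 members (2.23% of all genes). Between the other two, 2 members were more than 2-fold higher in mouse 5 than in mouse 6 (0.885% of all genes) and 7 in mouse 6 than in mouse 5 (1.3% of all genes). When each member was set against the summed light chain V count of its lung, an alternative added after seeing the data, 9 members had an unadjusted p under 0.05 and none an adjusted one (4.88% of all genes unadjusted), and the members' median log2 ratio was 0.63. Igkv4-91 then had the smallest p, with an edgeR adjusted p of 0.955.

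Other transcripts were set beside this level, which not all of them followed, and their part in it was not tested. Igkc stood at 2323, 1242 and 1664 CPM in mice 4, 5 and 6, again highest in mouse 4. The 10 plasma cell markers summed to 1118, 961 and 929 CPM, with 6 of 10 highest in mouse 4, against 33.5% of all genes tested. This sum mixes unlike patterns. Jchain stood at 401, 273 and 286 CPM and Mzb1 at 27.2, 16.4 and 23.2. Sdc1, at 237, 248 and 211, and Txndc5, at 181, 170 and 167, differed less. The 10 B cell markers, in contrast, summed to 487, 358 and 530 CPM, a sum highest in mouse 6. The 8 T cell markers summed to 417, 302 and 468 CPM. Skeletal muscle markers were far higher in mouse 4, with sums of 5325, 1978 and 1705 CPM and all 8 genes highest there. Pvalb, the scarcest of them, stood at 26.4, 10.8 and 8.70 CPM.

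The lymphoid genes of antibody gene assembly had few counts, while regulators of light chain transcription were well expressed. Rag1 had 6, 2 and 3 counts and Rag2 0, 0 and 1. Dntt, which adds bases at the junctions, had 20, 15 and 21 counts. Of the surrogate light chain, the stand-in used before a light chain is made, Igll1 had 6, 5 and 1 counts, Vpreb2 1 in each lung and Vpreb1 19, 34 and 11. Vpreb3, which mature B cells also express, had 659, 724 and 822. General repair genes of the joining step, such as Prkdc and Polm, averaged 14.2 ± 0.734 and 29.7 ± 2.75 CPM.

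Among regulators, Pou2f2 and its partner Pou2af1, which act on the octamer of V promoters, averaged 43.2 ± 6.03 and 28.85 ± 5.46 CPM, and Irf4, raised in plasma cells, 11.6 ± 1.23. Spib averaged 51.7 ± 11.2 CPM. The most abundant of the list were Irf8, Spi1, Rela and Nfkb1, at means of 238, 162, 154 and 135 CPM. Bulk lung RNA does not tell which cells these came from. Of the 10 regulators, 8 were highest in mouse 4, against 33.5% of all genes tested. Pax5, at 33.1, 25.8 and 36.6 CPM in mice 4, 5 and 6, and Tcf3, at 74.4, 72.6 and 80.9, were highest in mouse 6. None of the 10 passed the edgeR spread test after adjustment, nor did the 8 tested recombination genes, Vpreb1 or Vpreb3. The test called 0 of all 17636 genes, so this does not set these genes apart.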

How the data were processed

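Light chain V genes were analysed in lung RNA of 3 mice, 1 library each. The authors deposited unnormalized whole-number counts for each Ensembl identifier. STAR 2.5.2a, Trim Galore 0.6.2, bcl2fastq 2.17 and the mm10 build are listed in the submitters' processing notes. How reads were counted, on which gene models and with what strand setting, is not given in the sources used here. V exons of 1 family share long stretches, and reads that match several copies, cross the V-J junction or carry hypermutations may have been lost or split. Per 100 counts of Igkc, kappa V genes had 19.6, 20.15 and 18.4 counts in mice 4, 5 and 6. Lambda V genes had 24.6 to 29.0 per 100 lambda constant counts, and heavy chain V genes only 5.595 to 6.71 per 100 heavy chain constant counts. How much of the V reads was lost was not tested. GENCODE M21 (GRCm38) matched 53237 of 53342 identifiers (99.8%).

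Usage, intervals, entropy and sequence features were computed in Python 3.11.15 with numpy 2.4.6, pandas 2.3.3 and scipy 1.17.1. CPM used TMM factors from edgeR 4.0.16 (R 4.3.3). Spread was tested with the older quasi-likelihood fit, an intercept alone, filterByExpr and robust empirical Bayes, with an F test (upper tail) of each gene's quasi-dispersion over the trend (3.88 prior degrees of freedom), a Benjamini-Hochberg threshold of 0.05 over all genes, and a check on simulated data. The simulation set every gene on the trend, and the test recovered 17 of 50 genes raised 2-fold in 1 mouse and 47 of 50 raised 4-fold. Real genes scatter about the trend, so these shares do not give the power in these lungs. DESeq2 1.42.0 and limma 3.58.1 (pseudocount 0.5) were alternatives, beside other scalings and filters, counts per kilobase of exon, pseudogenes added, near-identical members left out and each mouse left out. The animals are separate by their labels, and groups of 3 were not tested for outliers.

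Members, lists and tests were chosen with earlier results of these data known. Genes named are the 20 most used, the 5 most used of each lung, every Iglv gene, the most used of each family, the 10 with the widest usage ratio at 50 counts or more and the 5 with the smallest spread p. Any other member named was chosen after values were seen.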

Additional observations from a re-analysis of the deposited data

Results flagged for a closer look

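Counts outside the 103 members were seen in related light chain features. The 60 light chain V pseudogenes held 63 counts summed over the lungs, 28 in mouse 4, 16 in mouse 5 and 19 in mouse 6. Those with a count numbered 7, 11 and 8 in mice 4, 5 and 6. Igkv4-73 (10, 1 and 4 counts) and Igkv4-77 (5, 3 and 4) were highest in summed counts. The light chain joining segments held 480 counts summed over the lungs. Igkj4 had 77, 31 and 49 counts in mice 4, 5 and 6, Igkj5 59, 34 and 32, Igkj2 43, 23 and 10 and Igkj1 3, 3 and 10.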

How the results depend on the processing

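Of 51 recomputed values, 2 changed sign and 8 moved by more than the spread between mice or, for counts, by over 1.5 times. The other 41 did not, except that evenness, whose test could not pass in any setting, was judged by its sign alone. The number of genes holding 50% of the counts was judged by the 1.5 times rule only. Its mean was 13.3 without Igkv14-111 and 8.33 with members that have a 97% identical relative left out. Both shifts stayed within that rule but exceeded the SD between mice, so this number was not stable to either choice. With members that have a 97% identical relative left out, the kappa share was 89.8%, the effective number 31.65 and the share of the 10 most used 55.0%. Without Igkv14-111 these were 90.1%, 47.7 and 42.6%, and light minus heavy evenness changed sign to 0.0130. With the most used gene left out on both sides it was 0.00611. It was −0.0643 with members under 10 counts left out and −0.105 as inverse Simpson per gene, another scale. Constant genes gave a kappa share of 93.8%. With every gene of at least 1 count tested, 17 of 97 members passed the spread test, against 2.05% of all genes, and the fitted prior degrees of freedom were then infinite; no other setting called a member. Leaving out each mouse gave kappa shares of 91.2% to 92.6%, effective numbers of 37.2 to 40.65 and evenness differences of −0.0420 to −0.0290. Depth limits usage below about 0.03% of light chain V counts. No paired analysis was possible because the labels give 1 group, so replicate numbers pair no samples. Light and heavy chain genes were compared within each mouse.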
